A study of Arabidopsis thaliana with 10 samples.

Results

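Plant lines 3-2 and 1-5 of Arabidopsis thaliana were compared, both of which carry an ethanol-switched transgene for a mutant form of KLU. Arrays were assigned by the line named in the sample titles, and those of line 3-2 were set against those of line 1-5 at the same time. The comparison takes 4 of the 10 arrays of the series, 2 of each line. Both lines have the genotype 35S::AlcR-AlcA::KLUmut in the klu-2 background and were sampled after 90 min and after 240 min of ethanol vapour, with 1 array per line and time. The other 6 arrays come from lines 3-1 and 4-3, which carry 35S::AlcR-AlcA::KLU, the wild-type protein, in the same klu-2 background, at 0, 90 and 240 min. Each line is 1 transformed plant line and not a population of them, and its number of transgene insertions was not analysed here. No uninduced array of a mutant line was analysed here, so the level of a transcript in these 2 lines before the vapour is unknown. Tissue was inflorescences with young buds, pooled within a sample, and plant ages were not given in the sources used here.

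KLU, also called KLUH or CYP78A5, is a cytochrome P450 of the endoplasmic reticulum that promotes the growth of leaves, petals and other organs without being made in all the cells that respond. The AlcR protein of the fungus Aspergillus nidulans, made here from the broadly active 35S promoter, is activated by ethanol and switches on the AlcA promoter in front of the transgene. The series uses the mutant protein as a control for the enzyme's activity. Because the 2 mutant lines are treated there as replicates of one control, a standing difference between them bears on every value taken over both.

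All 10 arrays had medians between 5.93 and 6.05 on the log2 scale of the deposited intensities, and the 4 mutant arrays correlated with each other at 0.983 to 0.99 over 22746 probe sets. With 2 arrays per line, precision is set by how few arrays there are. The KLU transcript and the transgene were not analysed here. Of the listed genes known from flower tissue, the ovule gene INO read 5.24 and 5.06 in line 1-5 and 5.64 and 5.35 in line 3-2, in the order 90 and 240 min, an order kept below. SPT, a regulator of carpel growth, read 6.20 and 6.87 in line 1-5 and 6.70 and 7.05 in line 3-2. The stem cell gene CLV3 was low in both lines, between 3.29 and 3.45 on the 4 arrays.

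Over both times no probe set passed the threshold between the 2 lines. The difference was tested with limma over all 22746 probe sets, with a mean for each construct and time and a line term for each construct, so that all 10 arrays estimated the spread. At an adjusted p under 0.05 it called 0 probe sets (0.0%). An unadjusted p under 0.05 was found for 2215, of which 1126 were higher and 1089 lower in line 3-2. The smallest adjusted p was 0.0596. With a variance that follows the level, limma called 12 probe sets, 11 higher and 1 lower in line 3-2, and 11 when dim probe sets below the median level were left out. Nothing in the labels says whether a line's arrays at 90 and 240 min came from separate plants, so the p-values measure the spread between these arrays.

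Most probe sets differed little, with a median absolute difference of 0.15 log2 units against 0.17 between the wild-type KLU lines. Both arrays of line 3-2 lay above both of line 1-5 in 4508 probe sets (19.8%) and below both in 5565 (24.5%). Among these, 189 probe sets (0.831%) were higher in line 3-2 by at least 1 log2 unit, which is a fold of 2, and 112 (0.492%) were lower by as much. Without the 240 min array of line 1-5 these counts were 383 and 309, without that of line 3-2 they were 358 and 288, and with dim probe sets left out 72 were lower. At 2 log2 units or more the counts were 27 higher (0.119%) and 4 lower (0.0176%). The large differences therefore lay mostly on the side of line 3-2, while the median over all probe sets was -0.02. At both times, 71 probe sets were higher and 30 lower by at least 1 log2 unit. Some of the largest rises came from the 240 min array of line 3-2, such as 250351_at with 0.34 at 90 min and 7.45 at 240 min. Others stood at both times, such as 256099_at with 4.39 and 4.55.

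The 10 named genes with the smallest p held 8 that were higher in line 3-2. The largest difference among these was in AGL86, which encodes a MADS box transcription factor. Its log2 values were 2.95 and 4.33 in line 1-5 and 7.40 and 7.57 in line 3-2. At 90 min line 1-5 was near the uninduced wild-type KLU arrays, at 3.18 and 3.33, and at 240 min it lay above them. Line 3-2 lay below the 4 induced wild-type arrays, at 8.27 to 9.56. The difference between the mutant lines was 3.85 log2 units (SE 0.312, adjusted p = 0.0674 in limma), a fold of 14.4.

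SBTI1.1, which encodes a subtilisin-like protease, read 7.15 and 7.38 in line 1-5 and 10.33 and 9.47 in line 3-2. The difference was 2.63 (SE 0.250, limma adjusted p = 0.0715), a fold of 6.21. Line 3-2 again stood between line 1-5 and the induced wild-type arrays, which read 11.83 to 12.06. In pooled tissue a higher level per cell and a larger share of expressing cells cannot be told apart, here or in any other result. EXPA20, which encodes an expansin, a protein that loosens cell walls, read 5.78 and 6.02 in line 1-5 and 7.45 and 7.54 in line 3-2. Its difference of 1.59 (SE 0.124) had a limma adjusted p of 0.0674.

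GPDHp, which encodes a plastidic glycerol-3-phosphate dehydrogenase, read 7.58 and 7.82 in line 1-5 and 9.15 and 9.36 in line 3-2. AT4G25390 read 5.19 and 5.26 in line 1-5 and 6.80 and 6.68 in line 3-2, and AT4G38670 read 4.87 and 5.18 against 6.97 and 6.87. AT4G29780 read 5.70 and 5.75 in line 1-5 and 7.49 and 7.85 in line 3-2. In each of these 4 genes the lines lay more than 1 log2 unit apart at both times, and both arrays of line 3-2 stayed below the 4 induced wild-type arrays. Taking in AGL86, SBTI1.1 and EXPA20, this holds for 7 of the 10 genes. These 7 were also raised on the wild-type arrays alone, each by at least 1 log2 unit at an adjusted p under 0.05 in limma. Of all 22746 probe sets, 478 (2.1%) were raised by this rule. Line 3-2 lay between line 1-5 and the induced wild-type arrays in 397 (1.75%).

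The remaining 3 genes showed another order. AT5G05250 read 4.00 and 3.95 in line 1-5 and 6.13 and 5.49 in line 3-2, a difference of 1.83 (SE 0.211, limma adjusted p = 0.12). The 6 wild-type arrays read 3.53 to 4.55, so line 3-2 stood apart from all other arrays. AT1G19960 was lower in line 3-2, with 4.82 and 6.08 against 6.97 and 7.83 in line 1-5, and AT4G11290 was lower as well, with 5.34 and 5.52 against 6.46 and 6.88. AT4G11290 reached its highest values of all 10 arrays in line 1-5. In all alternative fits the 10 genes kept their direction.

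**Figure D1:**
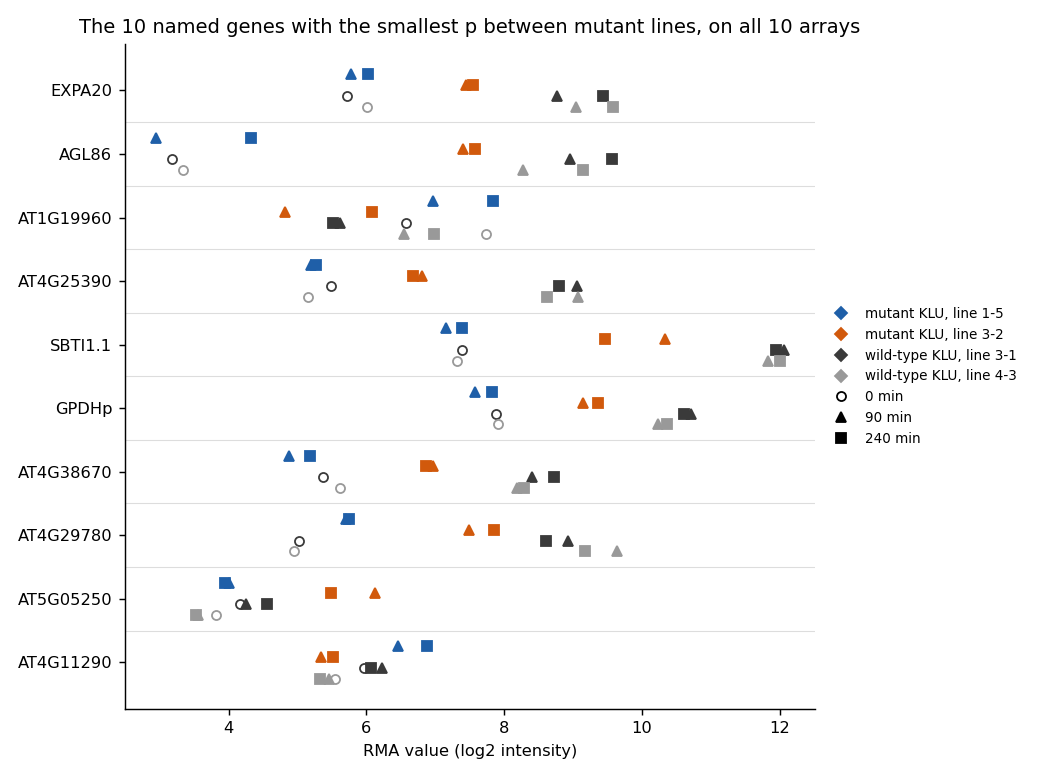
RMA values (log2 intensity) of the 10 named genes with the smallest p between the mutant KLU lines, 1 point per array, with colours for lines and symbols for times. In 7 genes, from EXPA20 to AT4G29780 without AT1G19960, line 3-2 lies between line 1-5 and the 4 induced wild-type KLU arrays.

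Probe sets that respond in the wild-type KLU lines were then read on the mutant arrays. They were chosen on the 6 wild-type arrays alone, as those with an adjusted p under 0.05 in limma for 90 and 240 min against 0 min, with the line as a block, and a change of at least 1 log2 unit. This choice uses no mutant array. It gave 478 raised probe sets (2.1%) and 422 lowered ones (1.86%), and such a change joins the active enzyme, the vapour and the elapsed time. The raised sets were higher in line 3-2 than in line 1-5, the more so the more they rose with wild-type KLU.

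For the 325 probe sets raised by 1 to 2 log2 units the median difference between the mutant lines was 0.23, and line 3-2 lay above line 1-5 on both arrays in 44.3% and below in 8.31%. For the 102 raised by 2 to 3 units the median was 0.54, with 55.9% above and 4.90% below. For the 51 raised by 3 units or more it was 1.17, with 76.5% above and 1.96% below. The same shares over all probe sets are 19.8% and 24.5%. The 422 lowered probe sets had a median of -0.10, with 14.9% above and 28.7% below.

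The 51 probe sets raised most had array medians of 5.40 and 5.25 in line 1-5 and 6.91 and 6.68 in line 3-2. They had 4.97 and 5.00 on the uninduced wild-type arrays of lines 3-1 and 4-3, and 8.61 to 9.17 on the 4 induced ones. Line 1-5 stood a median of 0.30 log2 units above the uninduced mean and line 3-2 a median of 1.71, against 3.58 with wild-type KLU. The probe sets were chosen for low uninduced and high induced values on the wild-type arrays, so the place of either mutant line between them is partly set by the choice, while the difference between the mutant lines is not. Both arrays of line 1-5 lay above both uninduced arrays in 21 of the 51, and both arrays of line 3-2 in 45. Over all 22746 probe sets this held for 3824 in line 1-5 and 4304 in line 3-2. Line 3-2 was higher than line 1-5 in 44 of the 51 at 90 min and in 44 at 240 min, with medians of 1.54 and 0.91.

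**Figure D2:**
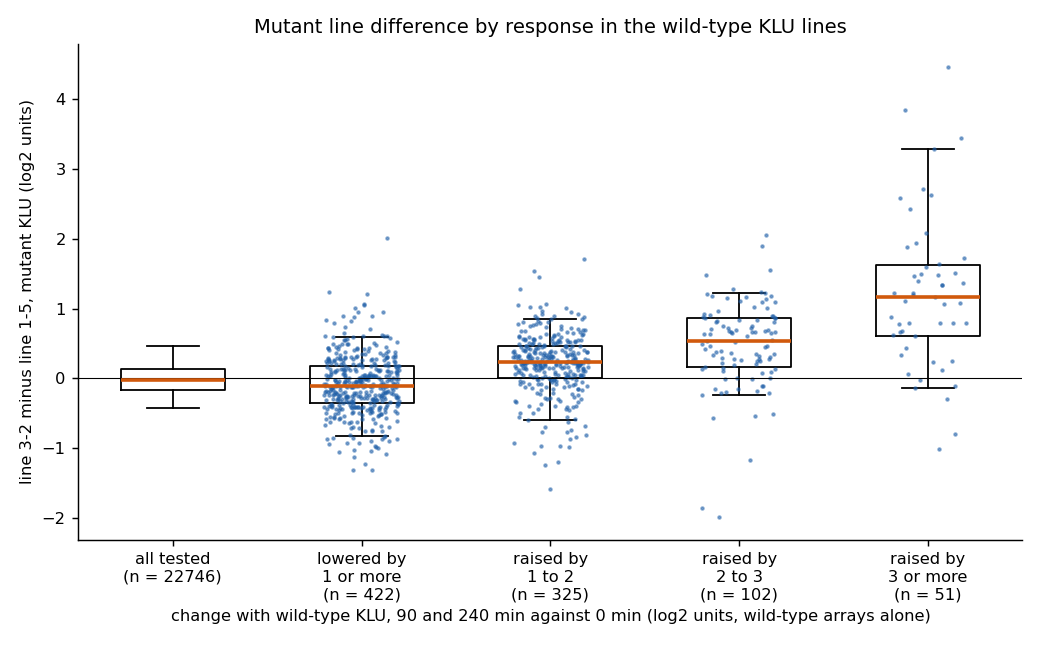
Difference between the mutant KLU lines (line 3-2 minus line 1-5, log2 units) for all probe sets and for those lowered or raised on the wild-type KLU arrays. Boxes give the quartiles and the median, whiskers the 5th and 95th percentiles, and points single probe sets. The median goes from 0.23 through 0.54 to 1.17 as the wild-type response grows.

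Of these 51 probe sets 20 carry a single gene name. AT3G63360 read 3.33 and 3.86 in line 1-5 and 6.63 and 5.98 in line 3-2, against 3.32 and 3.48 uninduced and 8.92 to 10.37 induced with wild-type KLU. AT1G17665 read 3.43 and 5.09 in line 1-5 and 6.28 and 6.40 in line 3-2. Both were near the uninduced level in line 1-5 at 90 min. APS4, which encodes an ATP sulfurylase, the enzyme that activates sulfate, read 5.84 and 6.64 in line 1-5 and 8.74 and 8.60 in line 3-2. Here the uninduced wild-type arrays themselves differed, with 7.44 in line 3-1 and 5.63 in line 4-3. AT1G80130 showed the same spread, with 7.57 and 5.38 uninduced, 4.80 and 5.09 in line 1-5 and 7.58 and 7.48 in line 3-2. In AT1G80130 line 3-2 was thus level with uninduced line 3-1, while in APS4 it stood more than 1 log2 unit above it.

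The highest difference of the 51 belonged to 256099_at, a probe set unnamed here, with 7.73 and 8.66 in line 1-5 and 12.12 and 13.21 in line 3-2. Not every member followed. AT3G48640 read 7.97 and 6.05 in line 1-5 and 5.60 and 8.14 in line 3-2, lower in line 3-2 at 90 min and higher at 240 min. AT3G12440 was near the floor in both lines, with 3.70 and 3.69 against 3.85 and 3.66. The lowest difference in the set was -1.01.

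The mutant lines also differed along the same probe sets as the wild-type KLU lines. Between lines 3-1 and 4-3, over 3 times, limma called 730 probe sets higher (3.21%) and 270 lower (1.19%) in line 3-1, and between 182 and 588 in all when 1 array was left out. The mutant arrays are other arrays of other lines, but they entered the spread behind these calls. The calls therefore favour probe sets whose mutant line difference is steady over time, which can raise the shares on both arrays. On the mutant arrays the 730 had a median difference of 0.36 between lines 3-2 and 1-5, with 58.4% above on both arrays and 2.88% below. That median was 0.54 at 90 min and 0.17 at 240 min. The 270 had a median of -0.35, with 4.07% above and 68.5% below. Across all probe sets the 2 line differences correlated at 0.511, a description over features that share the arrays and are not independent. Nothing in the labels ties line 3-2 to line 3-1, so which line is named first in each pair is arbitrary, and both signs would turn if 1 pair were turned. Of the 189 probe sets at least 1 log2 unit higher in line 3-2, 56 (29.6%) were called higher in line 3-1 and 0 lower. Of the 112 that were lower, 21 (18.8%) were called lower in line 3-1 and 1 higher.

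Of the 478 probe sets raised with wild-type KLU, 11 were called higher and 11 lower in line 3-1, beside 3.21% and 1.19% of all probe sets, and their median difference between the wild-type lines was -0.05. Between the mutant lines the median of the 478 was 0.30.

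**Figure D3:**
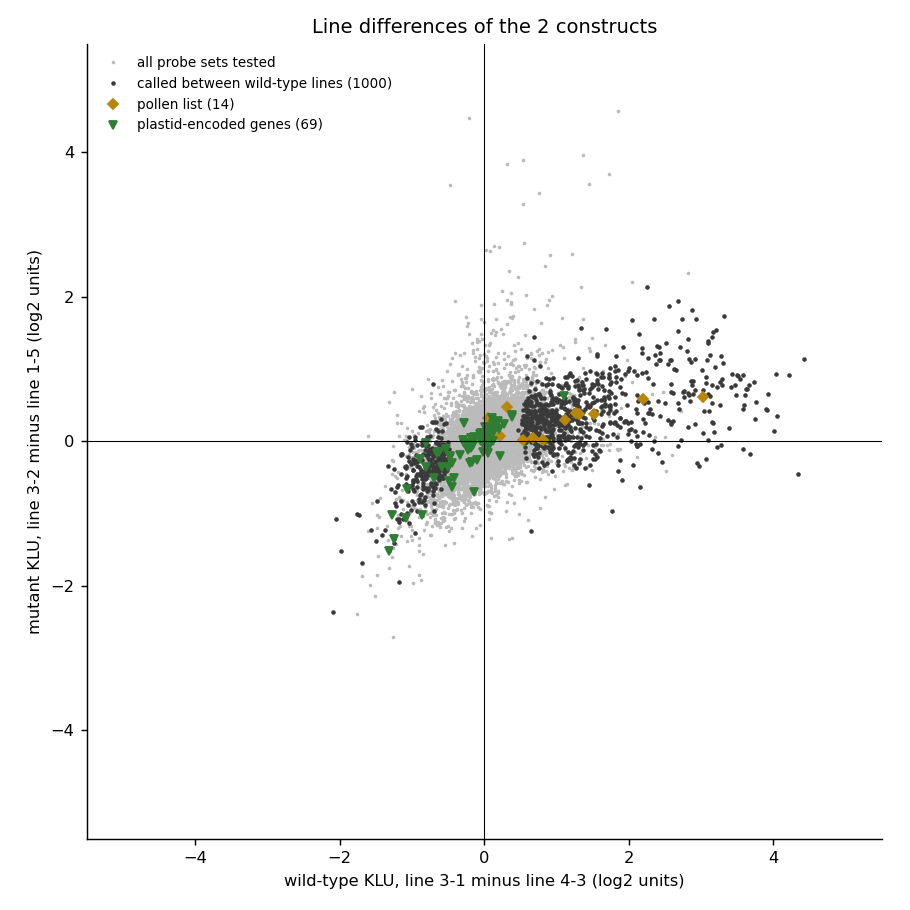
Difference between the mutant KLU lines against the difference between the wild-type KLU lines (log2 units), 1 point per probe set. Dark points are the 1000 called between the wild-type lines, diamonds the pollen list and triangles the plastid-encoded genes, and the points run from lower left to upper right with an r of 0.511.

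Pollen genes were on the higher side of line 3-2, as they were in line 3-1. Of 57 listed genes known from pollen, 14 were measured under a name, and 13 had a higher mean in line 3-2, 6 of them (42.9%) on both arrays, with 0 lower on both, beside 19.8% above and 24.5% below over all probe sets. Their median difference was 0.31, with 0.46 at 90 min and 0.06 at 240 min, against 0.74 between lines 3-1 and 4-3. The mean level of the 14 was 5.25 and 5.25 in line 1-5 and 5.67 and 5.35 in line 3-2. It was 5.57 to 6.31 on the 3 arrays of line 3-1 and 4.86 to 5.00 on those of line 4-3. MGH3, a histone gene of the male germ line, read 5.11 and 5.40 in line 1-5 and 6.12 and 5.55 in line 3-2, and AT5G45880 read 9.22 and 9.54 against 10.44 and 9.56. Both were called higher in wild-type line 3-1, by 2.19 and 3.02. Other markers, such as ANX1 and ANX2, receptor kinase genes of the pollen tube, lay between 3.38 and 3.86 on the mutant arrays. AGL30, a MADS box gene of this list, read 5.39 and 5.45 in line 1-5 and 5.98 and 5.80 in line 3-2, and it is also among the genes raised with wild-type KLU. The part of pollen content in the line differences was not tested.

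Genes of the tapetum, the anther layer that feeds pollen, gave a median of 0.33 over 7 measured of 36 listed. On both arrays 4 (57.1%) lay above line 1-5 and 1 (14.3%) below, beside 19.8% above and 24.5% below over all probe sets. AT1G75890, which had the smallest p of the 7, was the 1 below, with 6.42 and 6.55 in line 1-5 and 6.02 and 5.84 in line 3-2. SHT, which encodes a spermidine acyltransferase of the tapetum, read 9.14 and 9.24 in line 1-5 and 9.91 and 9.45 in line 3-2. Between lines 3-1 and 4-3 the median of the 7 was 0.13, and limma called 0 of them in either direction.

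A run of neighbouring genes had the same direction in both pairs of lines. AT3G28840 read 5.96 and 7.69 in line 1-5 and 8.51 and 7.85 in line 3-2, and was called higher in line 3-1 by 2.52. Its measured neighbours AT3G28790 and AT3G28830 were also higher in line 3-2, by 1.13 and 1.30, and were called higher in line 3-1, by 2.58 and 2.70. In all, 6 pairs of genes next to each other among those measured differed by at least 1 log2 unit in the same direction. They include the pairs within this run and the plastid pairs psbD with psbC and psbB with psbT, so they are not separate cases. How many such pairs unrelated neighbours would give was not worked out.

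Transcripts of heat shock genes were high on 1 mutant array. Heat shock proteins are chaperones that bind unfolded proteins, and their genes are switched on by heat and other stresses through heat shock factors. Of 27 listed genes 8 were measured, and all 8 had their highest value of the 10 arrays in line 3-2 at 240 min. The median difference between the mutant lines was 0.24 at 90 min and 4.04 at 240 min. Over both times it was 2.31, and 5 of the 8 (62.5%) lay above line 1-5 on both arrays, with none below, beside 19.8% above and 24.5% below over all probe sets.

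AT1G53540 read 3.26 and 3.05 in line 1-5 and 3.34 and 8.27 in line 3-2, while the 6 wild-type arrays read 3.07 to 3.31. AT2G29500 read 2.98 and 3.19 in line 1-5 and 3.32 and 8.34 in line 3-2. ATHSP22.0, a small heat shock protein gene, read 4.22 and 4.08 against 4.09 and 7.51. In these 3 genes the 90 min array of line 3-2 did not stand apart. Hop3, which encodes a co-chaperone that links HSP70 and HSP90, read 4.09 and 3.45 in line 1-5 and 4.46 and 7.14 in line 3-2. AT5G51440 read 3.85 and 3.58 against 4.65 and 7.96.

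AT5G48570, also named FKBP65 or ROF2, encodes a peptidyl-prolyl isomerase of the FK506-binding family. It read 4.89 and 4.48 in line 1-5 and 7.29 and 9.49 in line 3-2, so that line 3-2 was high at both times. Lines 3-1 and 4-3 differed in it too, with 6.96 and 6.97 against 5.02 and 4.36 at 90 and 240 min. The list's second highest array was that of line 3-1 at 240 min in 4 of the 8 genes, among them AT5G51440 with 6.76. None of the 8 was among the probe sets raised with wild-type KLU. HSA32 and AT5G37670 showed smaller differences at 240 min, of 1.39 and 1.12.

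**Figure D4:**
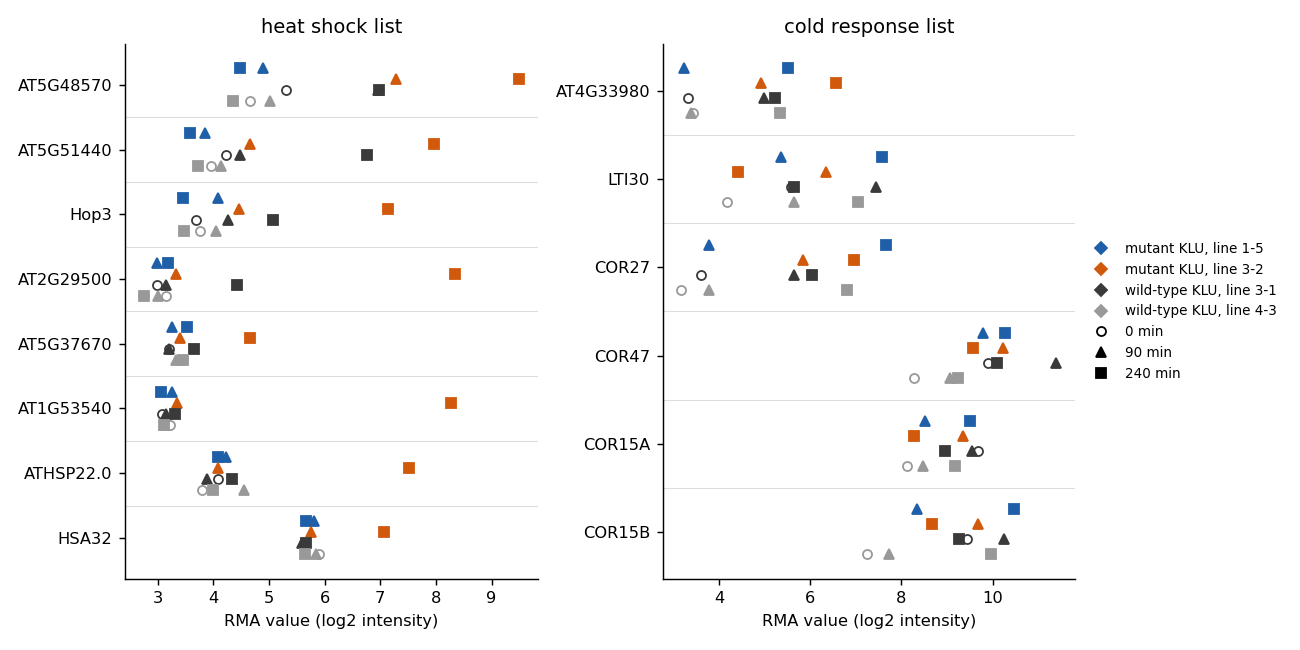
RMA values (log2 intensity) of the 8 heat shock genes and the 6 cold response genes on each array, with colours for lines and symbols for times. The 240 min array of line 3-2 is highest in all 8 heat shock genes, and in every cold response gene but AT4G33980 the order of the mutant lines turns between 90 and 240 min.

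Whether the line difference changed from 90 to 240 min was tested as a contrast of its own. With 1 array for each mutant line and time, the spread for this contrast came from the wild-type lines alone. Here limma called 0 (0.0%), and 599 probe sets had an unadjusted p under 0.05. AT1G53540 had the smallest p, with a line difference of 0.08 at 90 min and 5.22 at 240 min (change 5.14, limma adjusted p = 0.0631). It passed with a trended variance and after median centring. Over probe sets the line differences at the 2 times correlated at 0.348, with an SD of 0.407 at 90 min and 0.366 at 240 min.

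The next 3 named genes by p were lower in line 3-2 at 90 min and higher at 240 min. AT5G25440 read 6.63 and 5.63 in line 1-5 and 5.20 and 6.23 in line 3-2. AT1G19380 read 7.96 and 6.05 in line 1-5 and 6.51 and 6.95 in line 3-2. Line 1-5 was high at 90 min in both genes, which were also raised with wild-type KLU, by 1.30 and 1.19. AT5G10695 read 5.41 and 4.65 against 5.26 and 6.83. Each of these 3 had a limma adjusted p of 0.77 for the change. AT3G28840, next by p, went the other way, with line differences of 2.55 at 90 min and 0.16 at 240 min.

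Cold response genes changed order between the times. They include genes for dehydrins and other proteins that protect cells in cold or drought. This list was added after the values by time had been seen, so it is a description. Of 14 listed genes 6 were measured. At 90 min all 6 were higher in line 3-2, with a median of 1.16, and at 240 min 1 was, with a median of -0.96. LTI30, a dehydrin gene, read 5.36 and 7.58 in line 1-5 and 6.35 and 4.41 in line 3-2. COR15B, which encodes a plastid protein that protects membranes from freezing, read 8.35 and 10.48 in line 1-5 and 9.68 and 8.67 in line 3-2. COR27, a cold- and clock-regulated gene, read 3.78 and 7.67 in line 1-5 and 5.84 and 6.96 in line 3-2. Line 1-5 was thus higher at 240 than at 90 min in all 3, and line 3-2 in COR27 alone. For none of them did the change pass, with limma adjusted p-values of 0.997. The turn was not particular to the mutant lines. On the wild-type arrays the median of the 6 genes was 8.49 in line 3-1 and 6.67 in line 4-3 at 90 min. At 240 min it was 7.49 in line 3-1 and 8.12 in line 4-3, though COR47 stayed higher in line 3-1, with 10.10 against 9.24.

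**Figure D5:**
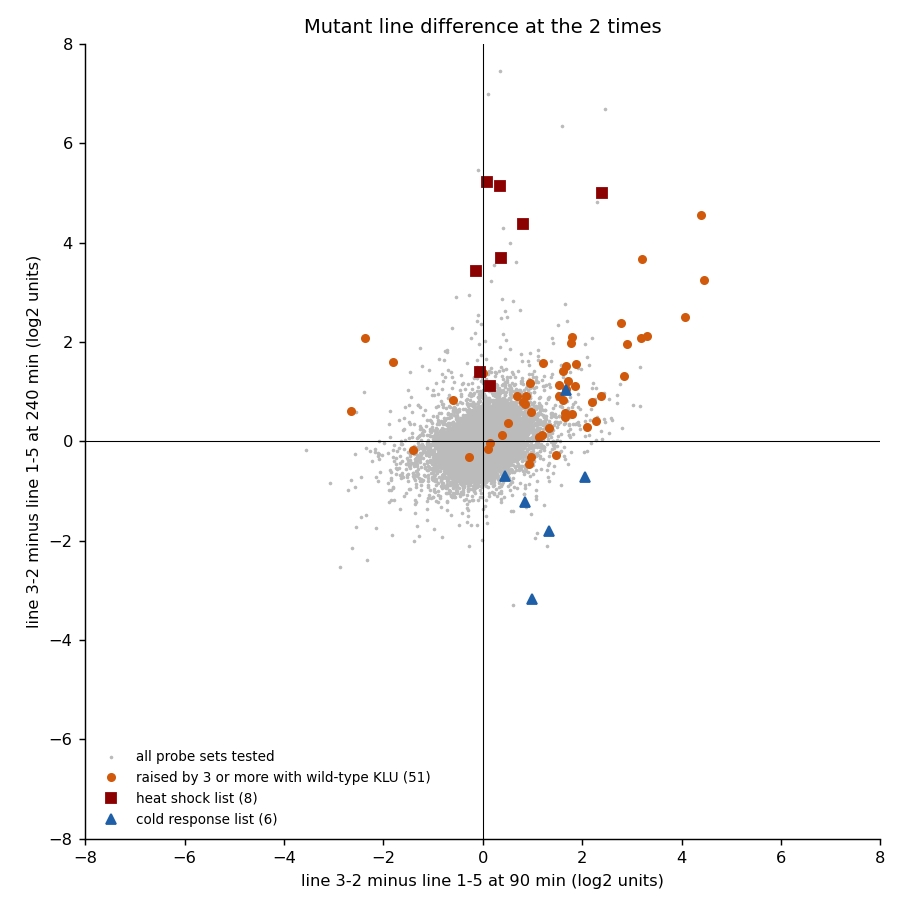
Difference between the mutant KLU lines (log2 units) at 90 min against that at 240 min, 1 point per probe set. The 8 heat shock genes lie at 1.12 to 5.22 at 240 min, 5 of 6 cold response genes lie below 0 there, and 44 of the 51 probe sets raised most with wild-type KLU lie above 0 at each time.

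Genes lower in line 3-2 were led by EXO, which encodes an extracellular protein of brassinosteroid-promoted growth. It read 10.77 and 11.09 in line 1-5 and 8.13 and 8.94 in line 3-2, a difference of -2.40 (SE 0.520, limma adjusted p = 0.331). Among the 6 wild-type arrays it ran from 7.36 to 9.25 in line 3-1 and from 9.97 to 10.57 in line 4-3. Line 1-5 lay above this range and nearest to line 4-3. AT5G61590 (DEWAX), which encodes a repressor of cuticular wax synthesis, read 9.98 and 9.40 in line 1-5 and 7.53 and 7.87 in line 3-2. It was among the probe sets raised with wild-type KLU, by 2.09, and went against the direction of most of them. AT4G37240 read 8.24 and 8.02 against 5.68 and 6.29. These 3 genes were chosen after their values were seen, as the largest of the differences on the lower side with a name.

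For the 112 probe sets lower in line 3-2 by at least 1 log2 unit, the mean of line 1-5 alone lay outside the range of the 6 wild-type arrays in 40 (35.7%) and that of line 3-2 alone in 6 (5.36%). For the 189 higher in line 3-2 the counts were 38 (20.1%) and 36 (19.0%). Over all probe sets the shares were 9.64% and 10.3%. In 66 of the 112 and 108 of the 189 both lines lay within the range.

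Xyloglucan endotransglucosylases, enzymes that cut and rejoin the xyloglucan of growing walls, were mostly lower in line 3-2. Of 9 measured genes 6 (66.7%) lay below line 1-5 on both arrays and 0 above, beside 19.8% above and 24.5% below over all probe sets. The median was -0.34. It was -1.08 for the members above the median level of all probe sets, which are XTH16 and XTH32 alone. Of the 6 genes below on both arrays, XTH19, XTH20 and XTH21 were near the floor, at 3.08 to 3.79 on the mutant arrays. XTH16 read 9.95 and 9.50 in line 1-5 and 8.16 and 8.33 in line 3-2, and XTH32 read 8.41 and 8.01 against 7.64 and 7.41. XTH33 read 6.36 and 5.07 in line 1-5 and 4.71 and 4.33 in line 3-2. The smallest limma adjusted p of the family was 0.372, and XTH32 was called lower in line 3-1 as well. EXLA2, an expansin-like gene, read 7.78 and 7.71 in line 1-5 and 6.77 and 6.59 in line 3-2, against the higher EXPA20 above. Of 18 expansin genes 3 (16.7%) lay above and 5 (27.8%) below on both arrays, shares near those of all probe sets, with a median of -0.05.

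Plastid-encoded genes held the chromosome with the largest share of differences. At least 1 log2 unit separated the lines in 5 of 69 measured genes (7.25%), all lower in line 3-2, against 0.728% to 1.17% on the 5 nuclear chromosomes. Plastid genes are transcribed in shared units, so they are not independent. psbB, which encodes a core antenna protein of photosystem II, read 10.49 and 10.09 in line 1-5 and 9.37 and 8.51 in line 3-2. psbT, a small subunit gene beside psbB, read 8.55 and 8.44 against 7.22 and 6.73. psbD, which encodes the D2 reaction centre protein, read 9.18 and 8.64 against 8.11 and 7.67, and psbC beside it 10.22 and 10.04 against 9.49 and 8.65. psaC, which encodes an iron-sulfur subunit of photosystem I, read 9.59 and 8.94 against 8.19 and 8.31.

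Over all 69 plastid genes the median difference was -0.03, with 12 above and 21 below on both arrays; the shares over all probe sets were 19.8% and 24.5%. The difference was thus in a few photosystem genes and not in the plastid set as a whole. psbB, psbT and psbD were also called lower in line 3-1 than in line 4-3, by -1.25, -1.31 and -0.86. The 8 measured nuclear genes of the photosystems and antennae had a median of -0.07.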

How the data were processed

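The values deposited by the authors are log2 intensities of 10 Affymetrix ATH1 arrays. They come from RMA according to the submitters' processing notes, and its version is not given in the sources used here. They were used as deposited. RMA brings arrays to one distribution, so a shift common to most transcripts cannot be seen, and probes differ in affinity, so levels were not compared between genes. Of 22810 probe sets 64 controls were left out. A platform table names 1 gene for 13513 probe sets and several for 503, and lists no gene for 8730, which are unnamed here. Of the 13513, 13436 matched the RefSeq gene table (TAIR10.1), used for names and for neighbours.

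Tests used limma 3.58.1 in R 4.3.3, two-sided, with Benjamini-Hochberg adjustment over 22746 probe sets and a threshold of 0.05. The line contrast had 3 residual and 3.55 prior degrees of freedom, and the line by time contrast 2 residual ones. Arrays were paired by time through the titles, and the correlation of 0.348 between times is over probe sets. The fit was tested on simulated data. Python 3.11.15, pandas 2.3.3 and matplotlib 3.10.9 made summaries and figures.

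Named genes are the 10 with the smallest p, since fewer than 3 passed, up to 4 per list by p, and the 5 with the smallest p for the line by time contrast; any other gene named was chosen after its values were seen. The comparison and the 42 lists, by locus or by symbol, were chosen with earlier results of these data known. The cold list, the sets chosen by contrasts of the wild-type lines and the counts at 1 and 2 log2 units were added after values were seen. Lists were not tested. Alternatives were the mutant arrays alone, no block for time, a trended or robust variance, quantile normalization, leaving out the dimmer probe sets, centring each array on its median, a size threshold and leaving out each array.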

Additional observations from a re-analysis of the deposited data

Results flagged for a closer look

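For the cold response list the line difference had opposite signs at 90 and 240 min, with a median change of -2.42 log2 units over its 6 genes. The plastid-encoded genes also had medians of opposite sign at the 2 times, -0.20 and 0.07, with a median change of 0.16 over 69 genes. Each time has 1 array per line, and the difference between times was not tested for a list.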

How the results depend on the processing

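Of 168 alternative values for the 10 named genes, 152 kept their direction and their side of the threshold, 16 newly passed it and 0 reversed. The call of 0 between the mutant lines moved to 12 with a trended variance and to 11 among probe sets above the median level. Without 1 array it ran from 0 to 3. The 3 came without either mutant array at 90 min, when the difference rests on 240 min alone, and were AT1G53540 and the unnamed 250351_at and 252515_at. Without either uninduced wild-type array 1 probe set, 256099_at, passed. With no replicate block for time 0 passed, with 1250 at an unadjusted p under 0.05, and on the 4 mutant arrays alone 0 passed, with 2365. For the line difference by time, called in 0 probe sets, a trended variance gave 3 and median centring 2, and leaving out each wild-type array in turn gave 0. Without a mutant array that contrast cannot be formed. The 1000 calls between the wild-type lines became 507 with no replicate block and 510 with at least 1 log2 unit, and ran from 182 to 588 without 1 array.

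Among probe sets above the median level 72 were lower by at least 1 log2 unit in line 3-2. The xyloglucan median there was -1.08, over XTH16 and XTH32 alone. Median centring moved the median of the probe sets called lower in line 3-1 to -0.39. Leaving out 1 array gave 189 to 383 probe sets higher and 112 to 309 lower by at least 1 log2 unit, since 1 array then stands for a line. Such medians ran from 0.24 to 4.04 for heat shock, -0.96 to 1.16 for cold response, -0.20 to 0.07 for plastid genes, 0.06 to 0.46 for pollen, 0.22 to 0.43 for the tapetum, -0.34 to -0.22 for xyloglucan enzymes, 0.91 to 1.54 for the probe sets raised by 3 log2 units or more with wild-type KLU, 0.27 to 0.42 for all 478 raised, 0.17 to 0.54 for those called higher in line 3-1 and -0.38 to -0.34 for those called lower. Dim probe sets cannot show a lower level, and 1 array per line and time limits every difference.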

Other observations

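A few other genes and families differed between the mutant lines. WRKY53, a transcription factor gene of senescence and defence, read 4.16 and 4.08 in line 1-5 and 5.93 and 6.11 in line 3-2, while the other 5 measured WRKY genes differed by -0.18 to 0.50. STZ, a zinc finger gene of stress responses, read 4.81 and 4.78 against 6.23 and 6.77, with 3.60 to 8.52 on the wild-type arrays. BHLH101, a regulator of iron uptake, read 3.24 and 2.99 against 3.70 and 3.72. CYP71B22 and its measured neighbour CYP71B23, cytochrome P450 genes, each differed by -1.20, and the KLU relative CYP78A9 read 4.66 and 4.60 in line 1-5 and 4.44 and 4.36 in line 3-2.

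Of 11 measured genes of auxin response and transport 10 had a lower mean in line 3-2, with a median of -0.21, beside 12179 of all 22746 probe sets. Of the 11, 4 (36.4%) were lower on both arrays, beside 24.5% of all probe sets. Among these 4, IAA30, IAA31 and IAA34 were dim, at 3.31 to 4.43 on the mutant arrays. GH3.9, of the auxin-conjugating enzyme family, read 5.59 and 5.24 in line 1-5 and 4.70 and 4.52 in line 3-2. Of 13 glutathione transferase genes 7 lay below and 2 above on both arrays, shares of 53.8% and 15.4% beside 24.5% and 19.8% for all probe sets. GSTU27 read 8.47 and 8.56 in line 1-5 and 7.83 and 7.75 in line 3-2. AT4G17260, listed among fermentation genes, read 8.61 and 8.18 against 7.90 and 7.42, and PDC2, which encodes pyruvate decarboxylase, read 7.20 and 8.76 against 8.36 and 8.65. None of these passed in limma.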
